A study of Rattus norvegicus with 6 samples.

Results

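The 29 genes described here make, sense, move and export cholesterol. They do not take in every enzyme of the pathway. They were chosen by symbol from a deposited table of 32662 rat genes, and each symbol matched 1 row. They comprise 19 synthesis enzymes, 5 genes of the SREBP control system, and 5 genes of sterol transport, export and LXR signalling. Of the enzymes, 7 act between acetyl-CoA and farnesyl diphosphate and 12 from there through squalene to cholesterol. All 29 were above 0 in all 6 libraries, and 28 passed the filter for testing (at least 1 FPKM in at least 3 libraries); the exception was Srebf1. FPKM scales a gene's fragments by its length and by the library's total, so levels can be compared between genes.

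The libraries came from primary oligodendrocyte precursor cells of the cerebral cortex of Sprague-Dawley rats aged 1 to 2 days. Cells floated off a mixed glial culture grown with 20% FBS and were kept for 4 to 5 days in PDGF and FGF (10 ng/ml each) with 2% B27 supplement, in both groups. The fibril group (3 libraries) was kept with preformed fibrils made of human alpha-synuclein over 72 hours, and the control group (3 libraries) was labelled as control. Whether libraries sharing a group derive from different animals or dishes is not labelled, so the p-values reflect spread among these 6 libraries that may be technical. Because RNA was taken from whole cultures, fewer cells of a type and less RNA per cell cannot be told apart.

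Cholesterol is built from acetyl-CoA through the mevalonate pathway, which ends in the isoprenoid farnesyl diphosphate. A pair of farnesyl units is then joined into squalene, which is oxidised, cyclised to lanosterol and trimmed to cholesterol. SREBP transcription factors, held in the endoplasmic reticulum by SCAP and INSIG proteins when sterol is plentiful, drive the enzyme genes when it is scarce. LXR receptors respond to oxysterols and raise the exporters ABCA1 and ABCG1 and the lipid carrier ApoE. In brain, cholesterol is made locally, and oligodendrocytes need much of it for myelin membrane.

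The comparison asked which transcripts differ in precursor cells that met alpha-synuclein fibrils. The synthesis enzymes leaned higher with fibrils, with 15 of 19 positive differences and a median log2 difference of 0.48 (47.0% of all 10766 tested genes were positive, with a median of -0.04). With libraries scaled to equal totals without mitochondrial genes, 13 of 19 were positive with a median of 0.17, while the median of all tested genes moved to -0.30. Leaving out 1 library, the enzymes' median ran from 0.16 (without control replicate 3) to 0.52, and it was 0.22 without fibril replicate 3. The SREBP control genes and the transport genes did not lean higher in the unscaled values: 0 of 4 and 1 of 5 tested genes were positive. No member passed an adjusted p of 0.05 (limma without a block, 0 of 28 members higher and 0 lower; 0% of all tested genes were called in either direction). Apoe was lower with fibrils in replicates 1 and 2 and higher in replicate 3.

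The libraries differed in depth and composition. Fragment numbers are unknown. Relative to control replicate 2, a single fragment added 4.03 times the FPKM in control replicate 1, 6.92 times in fibril replicate 1, and 0.818 to 1.96 times elsewhere, so replicate 1 was the shallowest pair. In replicate 1, 80.3% (control) and 75.6% (fibril) of summed FPKM came from mitochondrial genes, and at most 40.1% elsewhere. Without them, the totals ran from 284253 FPKM in control replicate 3 to 493062 FPKM in fibril replicate 3. The precursor markers Pdgfra (43.4 to 304 FPKM), Ptprz1 (32.9 to 302 FPKM) and Sox10 (135 to 332 FPKM) were present in every library, and fibroblast, mural and endothelial markers were at or near 0, with summed levels of at most 0.826 and 0.282 FPKM.

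The promoters of the members are shown first, because the enzyme genes are textbook SREBP targets. Whether the motifs bear on the levels was not tested. RefSeq promoters (build GRCr8) were available for 24 of the 29 members. There was no entry for Pmvk, Fdft1, Sqle, Stard4 or Abcg1. The 250 bases before the start were searched on both strands for 3 motifs, and hits of different motifs shared bases in 0 cases. The letters CCAAT, the box bound by the SREBP partner NF-Y, occurred for 18 of 24 members and 13 of 16 enzymes, against 34% of 33469 promoters of the same length. GGGCGG, a box of the factor Sp1, occurred for 20 of 24 members and 14 of 16 enzymes, against 30.5%. Srebf1 and Apoe have more than 1 promoter and were counted when any held the letters. The background counts single promoters, whether or not their genes were expressed here. TCACNCCAC, the core of the classical sterol regulatory element, occurred for 0 of 24 members against 0.974% of all promoters, so these exact letters are not in these windows. The 6 sequences below run 5′ to 3′ up to the base before the start, with CCAAT, or its complement ATTGG, in capitals. They are shown for 3 genes that stood high in replicate 1 of both groups (Hmgcs1, Idi1, Insig1), for the promoter with the most CCAAT boxes among the members (Mvk, 5 boxes, tied with Nsdhl), for the enzyme that differed most among those higher within 3 of 3 replicate numbers (Fdps), and for the enzyme whose groups did not overlap (Cyp51, 0 boxes).
Hmgcs1, chr2:53382054-53382303, plus strand: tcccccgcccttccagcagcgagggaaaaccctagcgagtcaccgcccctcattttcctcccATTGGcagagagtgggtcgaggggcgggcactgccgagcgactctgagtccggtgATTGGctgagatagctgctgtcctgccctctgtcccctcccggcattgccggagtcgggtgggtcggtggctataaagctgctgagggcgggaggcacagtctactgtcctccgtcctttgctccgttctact
Idi1, chr17:66547525-66547774, minus strand: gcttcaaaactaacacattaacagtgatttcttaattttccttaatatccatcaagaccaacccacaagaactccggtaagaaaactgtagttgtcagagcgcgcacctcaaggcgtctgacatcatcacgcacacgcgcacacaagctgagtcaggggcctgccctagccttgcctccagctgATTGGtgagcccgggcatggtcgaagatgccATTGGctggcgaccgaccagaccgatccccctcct
Insig1, chr4:8057770-8058019, minus strand: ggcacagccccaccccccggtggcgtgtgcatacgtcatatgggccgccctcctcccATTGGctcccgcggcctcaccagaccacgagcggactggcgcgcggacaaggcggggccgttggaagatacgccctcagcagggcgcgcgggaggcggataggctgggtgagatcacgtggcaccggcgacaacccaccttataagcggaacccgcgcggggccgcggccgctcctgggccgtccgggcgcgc
Mvk, chr12:47819504-47819753, minus strand: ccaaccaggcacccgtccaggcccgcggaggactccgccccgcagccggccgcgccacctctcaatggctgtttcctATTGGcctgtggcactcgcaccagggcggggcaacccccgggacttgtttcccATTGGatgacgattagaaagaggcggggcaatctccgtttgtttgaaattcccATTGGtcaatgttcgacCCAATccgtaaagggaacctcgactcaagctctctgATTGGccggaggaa
Fdps, chr2:176804817-176805066, minus strand: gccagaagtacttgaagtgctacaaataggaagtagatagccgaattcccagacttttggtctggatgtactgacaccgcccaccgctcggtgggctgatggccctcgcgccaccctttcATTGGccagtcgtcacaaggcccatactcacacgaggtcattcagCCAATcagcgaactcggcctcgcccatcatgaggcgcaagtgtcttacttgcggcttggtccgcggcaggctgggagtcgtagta
Cyp51, chr4:30991443-30991692, plus strand: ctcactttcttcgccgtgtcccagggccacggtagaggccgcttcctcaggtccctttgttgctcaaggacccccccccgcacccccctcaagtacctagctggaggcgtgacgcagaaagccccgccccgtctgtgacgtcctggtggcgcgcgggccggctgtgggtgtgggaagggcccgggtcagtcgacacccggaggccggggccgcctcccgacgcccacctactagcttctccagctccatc

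Mevalonate and isoprenoid enzymes included the 3 members with the highest control means (Hmgcs1, Idi1 and Fdps). Idi1 ranked there through control replicate 1, and in control replicates 2 and 3 it lay below Msmo1, Cyp51, Apoe and Sqle. The enzymes of this stretch had a median log2 difference of 0.57, with 6 of 7 positive. The median was 0.87 without control replicate 2 and 0.91 without fibril replicate 1. It was 0.48 without fibril replicate 3, 0.43 after quantile normalization and 0.26 with equal totals, where the median of all tested genes was -0.30. With the block and fibril replicate 3 left out it was 0.35. Hmgcs1, the synthase that makes HMG-CoA (chromosome 2, 52431600 to 52445055 in the deposited table, whose build is not given), had the highest control mean of the members. Fdps exceeded it in control replicate 2 and in fibril replicates 2 and 3. Hmgcs1 had 786, 192 and 191 FPKM in control replicates 1, 2 and 3 and 873, 283 and 332 FPKM in the fibril libraries. The fibril library was higher than the control with the same number in 3 of 3 cases, but replicate 1 lay far above the rest in both groups, so the groups overlapped. Its log2 difference was 0.50 (SE 0.73, limma adjusted p = 0.966).

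Idi1, the isomerase that readies isoprene units for joining (chromosome 17, 57976267 to 58050992), followed the same course. It had 408, 70.8 and 44.8 FPKM in the 3 controls against 436, 109 and 89.3 FPKM after fibrils. Replicate 1 was again the high pair, and the fibril library was higher within each replicate number. The log2 difference was 0.57 (SE 0.90, limma adjusted p = 0.967). The listed span of Idi1 takes in Wdr37, and how fragments of overlapping genes were assigned is not given in the sources used here.

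Fdps, which makes farnesyl diphosphate (chromosome 2, 188392857 to 188413219), had 114, 235 and 132 FPKM in the 3 controls against 157, 297 and 627 FPKM after fibrils. Here fibril replicate 3 was the high library, at more than any other library of this gene. The ratio of means was 2.25-fold and the log2 difference 1.01 (SE 0.61, limma adjusted p = 0.96). Within replicates 1, 2 and 3 the log2 differences were 0.46, 0.34 and 2.24, and without fibril replicate 3 the difference was 0.50.

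The 3 enzymes that turn mevalonate into isopentenyl diphosphate had positive differences of 0.58, 0.83 and 0.49 (Mvk, Pmvk and Mvd), none past the threshold. Mvk, the mevalonate kinase, had 6.11, 20.6 and 13.1 FPKM in the 3 controls against 5.29, 30.2 and 36.1 FPKM after fibrils. Pmvk, the kinase of the next step, had 14.0, 28.3 and 15.9 FPKM against 29.99, 22.9 and 55.4 FPKM. Mvd, the decarboxylase, had 6.59, 26.99 and 21.0 FPKM against 6.59, 31.1 and 52.8 FPKM. In Mvk and Mvd replicate 1 was the low pair in both groups, the reverse of Hmgcs1 and Idi1, and in all 3 genes fibril replicate 3 was the highest library. Acat2, the cytosolic thiolase at the head of the pathway, was the 1 enzyme of this stretch with a negative difference (-0.30, SE 0.69). It had 19.6, 52.1 and 31.8 FPKM in the 3 controls against 7.85, 45.6 and 46.2 FPKM after fibrils, and the groups overlapped.

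**Figure D1:**
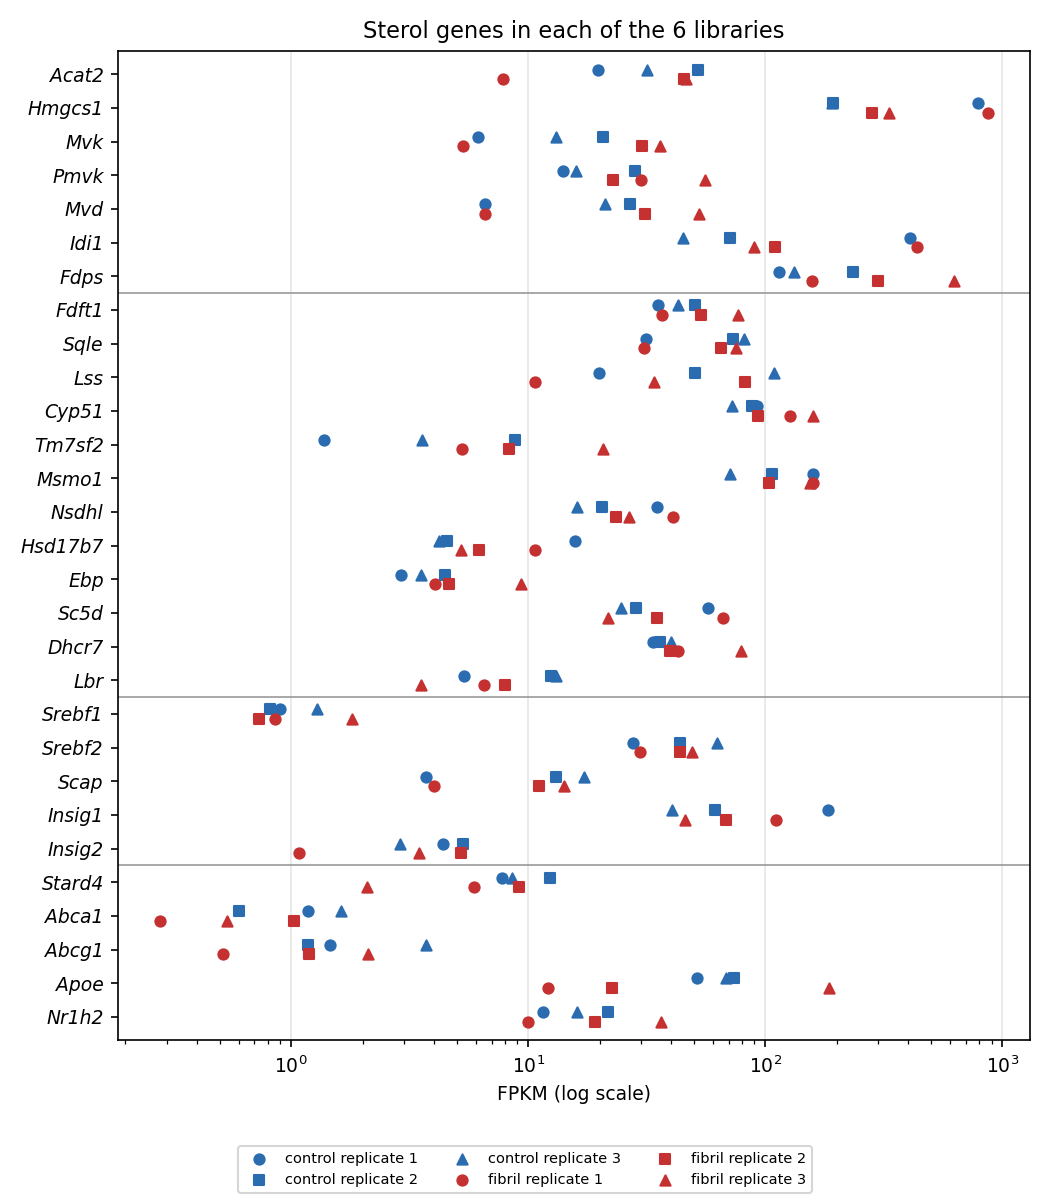
FPKM on a log axis of 29 sterol genes in each of the 6 libraries, ordered by role (from the top: mevalonate and isoprenoid enzymes, squalene and sterol enzymes, SREBP control, transport and export). Blue points are control and red points fibril libraries, with the marker shape giving the replicate number. Hmgcs1 and Idi1 have both circles (replicate 1) at 408 FPKM or more and the other libraries at 332 FPKM or less, while Cyp51 has all red points right of all blue ones.

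Squalene and sterol enzymes had a median log2 difference of 0.34, with 9 of 12 positive. The median was 0.14 without control replicate 3, 0.22 without fibril replicate 3 and 0.17 after quantile normalization. With equal totals it was 0.03, where the median of all tested genes was -0.30. Cyp51, the demethylase that acts on lanosterol (chromosome 4, 27175242 to 27194018), was the 1 member whose groups did not overlap. It had 91.9, 87.8 and 72.5 FPKM in the 3 controls against 127, 93.1 and 158 FPKM after fibrils. The gap was narrow, from 91.9 to 93.1 FPKM, and the log2 difference of 0.55 (SE 0.41) did not pass (limma adjusted p = 0.96). Of the 28 tested members, 1 had every fibril library above every control and 0 had every one below, against 4.24% and 5.3% of all tested genes (9.55% in either direction).

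Dhcr7, the reductase that gives cholesterol in the last step of its branch, came close to separating. It had 33.7, 36.0 and 40.1 FPKM in the 3 controls against 42.9, 39.8 and 78.7 FPKM after fibrils, with a log2 difference of 0.48 (SE 0.41). Only fibril replicate 2, at 39.8 FPKM, fell below the highest control. Ebp, the isomerase that shifts the sterol ring's double bond, had 2.90, 4.47 and 3.53 FPKM against 4.03, 4.65 and 9.33 FPKM. Fdft1, the squalene synthase, had 35.4, 50.3 and 43.0 FPKM against 36.5, 53.4 and 76.6 FPKM. Nsdhl, a dehydrogenase that helps remove methyl groups from the ring, had 34.8, 20.4 and 16.1 FPKM against 40.7, 23.4 and 26.6 FPKM. In each of these 4 genes the fibril library was higher within 3 of 3 replicate numbers, with the widest difference in replicate 3.

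Tm7sf2, a sterol reductase acting after Cyp51 (chromosome 1, 221425986 to 221440467), had the largest difference of the members. It had 1.38, 8.79 and 3.57 FPKM in the 3 controls against 5.27, 8.28 and 20.7 FPKM after fibrils, a 2.49-fold ratio of means. The groups overlapped, since replicate 2 was about level in both. Its log2 difference of 1.19 (SE 0.64) had an unadjusted p of 0.096 and an adjusted p of 0.96 by limma, and it was 0.69 without fibril replicate 3. Its listed span overlaps Vps51, so fragments of the pair may not be separable. Lbr, the lamin B receptor, carries the same reductase activity and went the other way. It had 5.34, 12.5 and 13.0 FPKM in the 3 controls against 6.51, 7.97 and 3.53 FPKM after fibrils, a log2 difference of -0.66 (SE 0.47, limma adjusted p = 0.96).

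The remaining sterol enzymes showed no common course. Sqle, the squalene epoxidase and a rate-limiting step, had 31.5, 73.1 and 81.0 FPKM in the 3 controls against 30.9, 65.1 and 75.3 FPKM after fibrils. It was lower within 3 of 3 replicate numbers, but by no more than 0.17 on the log2 scale. Lss, the cyclase that makes lanosterol, had 19.9, 50.7 and 109 FPKM against 10.7, 82.4 and 33.9 FPKM, so its sign differed between replicate numbers. Msmo1, an oxidase of methyl group removal, was level in replicates 1 and 2 (159 and 107 FPKM against 160 and 104 FPKM). In replicate 3 it had 71.1 FPKM in the control and 155 FPKM with fibrils. Hsd17b7, a ketoreductase, and Sc5d, a desaturase, had log2 differences of 0.03 (SE 0.54) and 0.11 (SE 0.52), with overlapping groups. Both were negative with libraries scaled to equal totals (-0.22 and -0.19), where the median of all tested genes was -0.30.

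Across the enzymes, 8 of 19 were higher with fibrils within 3 of 3 replicate numbers (Hmgcs1, Idi1, Fdps, Fdft1, Cyp51, Nsdhl, Ebp and Dhcr7) and 1 was lower in 3 of 3 (Sqle). Over all tested genes the shares were 16.9% higher and 19.3% lower. The highest of the 3 within-replicate differences lay in replicate 3 for 14 of 19 enzymes, against 40.2% of all tested genes. The enzymes' median differences within replicates 1, 2 and 3 were 0.15, 0.14 and 0.95, with 13, 13 and 15 of 19 positive. Over all 10766 tested genes the medians were 0.003, -0.04 and -0.05, with 5403, 4902 and 5231 positive. Replicate 3 was also the pair whose totals without mitochondrial genes differed most (284253 FPKM in the control, 493062 FPKM with fibrils). The part of these totals in the replicate 3 value was not tested. As a share of all FPKM without mitochondrial genes, the 19 enzymes together held 0.422%, 0.339% and 0.328% in controls and 0.441%, 0.399% and 0.386% with fibrils. The share was higher within each replicate number, and the groups overlapped. In replicate 3 that direction rested on Fdps and did not hold for the other enzymes together. Fdps made up 132 of 931 FPKM of the enzyme sum in control replicate 3 and 627 of 1903 FPKM in fibril replicate 3.

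**Figure D2:**
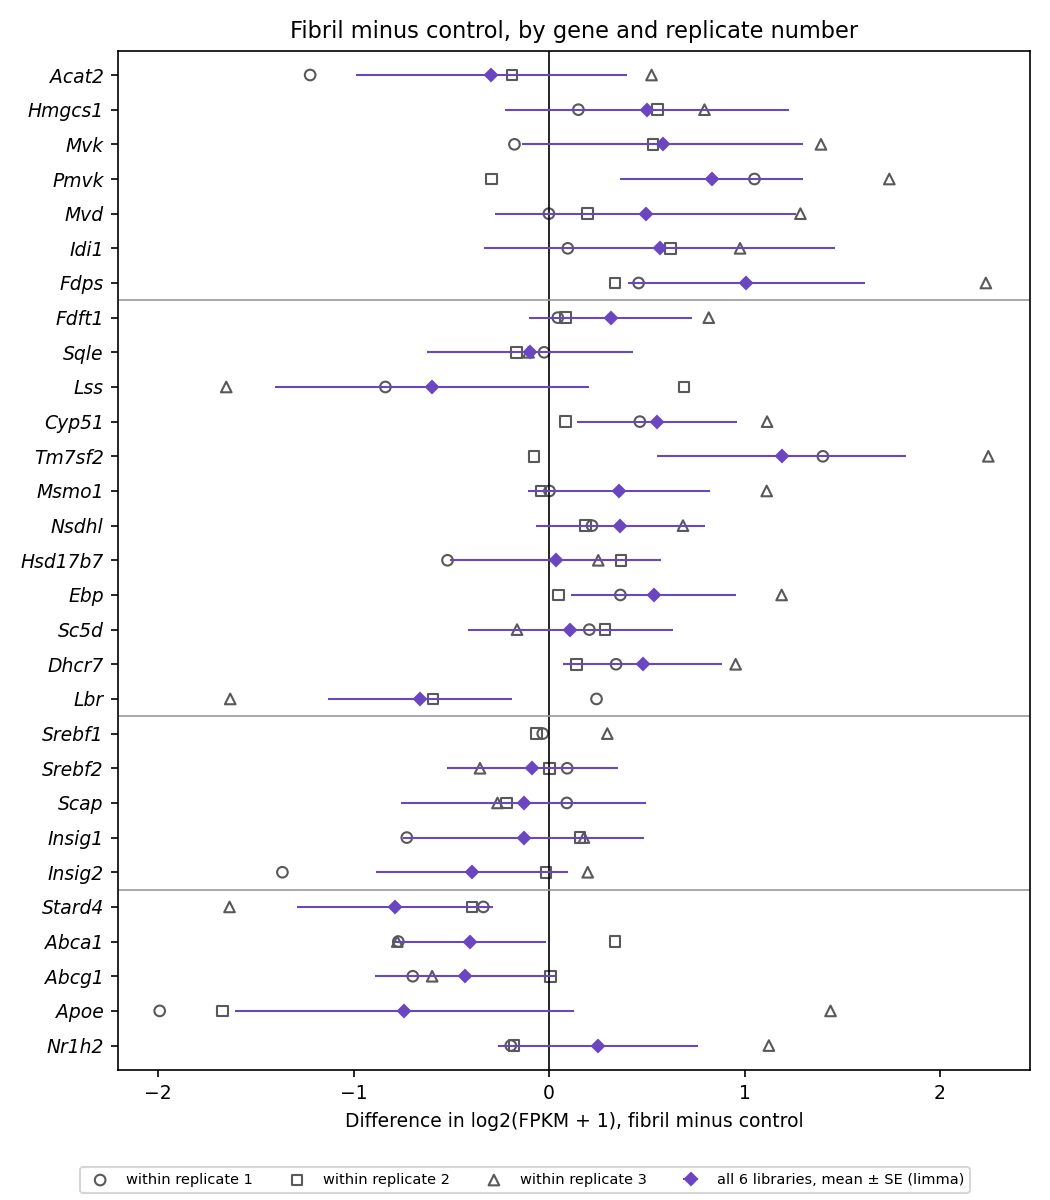
Difference in log2(FPKM + 1), fibril minus control, for each of 29 genes in the same order. Open markers are the differences within replicate numbers 1, 2 and 3, and filled diamonds with bars are the limma estimate over all 6 libraries with its SE (no diamond for Srebf1, which was not tested). The triangles (replicate 3) lie furthest right for most enzymes, and Apoe has its circle and square near -2 and its triangle at 1.44.

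With the replicate number as a block, limma called 0 of 28 members in either direction (0.111% of all tested genes were called higher and 0% lower). At an unadjusted p under 0.05, without a block 0 of 28 members passed (4.02% of all tested genes), and with the block 1 of 28 passed (9.84%). That gene was Tm7sf2, with an unadjusted p of 0.034 and an adjusted p of 0.492. With 3 libraries a side, the smallest p an exact two-sided permutation can give for a single gene is 0.1.

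Genes of the SREBP control system had a median log2 difference of -0.13, with 0 of 4 tested genes positive and standard errors of 0.44 to 0.63. The median ran from -0.37 without control replicate 1 to 0.0863 without fibril replicate 1. Srebf2, encoding the SREBP that favours cholesterol genes, had 27.8, 43.6 and 62.8 FPKM in the 3 controls against 29.7, 43.6 and 48.9 FPKM after fibrils (log2 difference -0.09, SE 0.44). Srebf1, encoding the form that favours fatty acid genes, had the lowest control mean of the members, at 0.893, 0.81 and 1.29 FPKM against 0.851, 0.73 and 1.81 FPKM. The listed span of Srebf1 overlaps Rai1. Srebf1 had only 2 libraries at or above 1 FPKM and was not tested. Scap, the escort of SREBP, had 3.69, 13.1 and 17.2 FPKM against 3.99, 11.1 and 14.2 FPKM, with replicate 1 low in both groups.

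Insig1, itself an SREBP target that retains SCAP, had 185, 61.2 and 40.5 FPKM in the 3 controls against 111, 68.4 and 46.01 FPKM after fibrils. It was higher with fibrils in replicates 2 and 3 and lower in replicate 1, for a log2 difference of -0.13 (SE 0.62, limma adjusted p = 0.994). Insig2, the paralogue not driven in the same way, had 4.35, 5.28 and 2.88 FPKM against 1.08, 5.21 and 3.45 FPKM. Its difference of -0.39 (SE 0.49) was widest in replicate 1, the shallowest pair.

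Transport and export genes had a median log2 difference of -0.43, with 1 of 5 positive. The median was -0.17 without fibril replicate 1, -0.24 without control replicate 3, -0.78 with a pseudocount of 0.1, -0.17 with one of 5 and -0.18 after quantile normalization. Stard4, a carrier that moves sterol between membranes, had 7.74, 12.3 and 8.57 FPKM in the 3 controls against 5.93, 9.13 and 2.08 FPKM after fibrils. It was lower within 3 of 3 replicate numbers, the groups overlapped, and the log2 difference was -0.79 (SE 0.50, limma adjusted p = 0.96). Without fibril replicate 3 it was -0.31. The exporter genes were close to the filter. Abca1 had 1.18, 0.604 and 1.63 FPKM against 0.279, 1.03 and 0.534 FPKM, and Abcg1 had 1.46, 1.18 and 3.70 FPKM against 0.514, 1.19 and 2.10 FPKM. Both were lower with fibrils in replicates 1 and 3 and not in replicate 2, with log2 differences of -0.40 (SE 0.39) and -0.43 (SE 0.46). Nr1h2, encoding LXR beta, had 11.6, 21.8 and 16.1 FPKM against 9.97, 19.1 and 36.2 FPKM, slightly lower in replicates 1 and 2 and higher in replicate 3. Its log2 difference of 0.25 (SE 0.51) turned to -0.05 with libraries scaled to equal totals, where the median of all tested genes was -0.30.

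Apoe, encoding the main lipid carrier of brain (chromosome 1, 80612894 to 80617057), had the widest range of within-replicate differences among the members. It had 51.3, 73.7 and 68.1 FPKM in the 3 controls against 12.1, 22.5 and 186 FPKM after fibrils. The controls lay close together, while fibril replicates 1 and 2 were below all of them and fibril replicate 3 above all of them. The log2 differences within replicates were -1.99, -1.67 and 1.44, and over all libraries the difference was -0.74 (SE 0.87, limma adjusted p = 0.96). With the block and without fibril replicate 3, a fit that compares replicates 1 and 2 only, it was -1.83 (SE 0.21, limma adjusted p = 0.0169). That fit leaves out the 1 fibril library in which Apoe was higher, and it has fewer residual degrees of freedom than the full block fit. Over all tested genes it called 37 higher and 8 lower. Without fibril replicate 1 and with no block the difference of Apoe was 0.04.

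Astrocytes and microglia make much of the brain's ApoE, so the markers of those cells are given beside it. The 8 astrocyte markers summed to 150, 145 and 162 FPKM in the 3 controls against 92.7, 94.8 and 232 FPKM after fibrils. As for Apoe, fibril replicates 1 and 2 lay below all controls and fibril replicate 3 above. Most of the sum of 232 FPKM was Aldoc (181 FPKM), so the high sum there rests largely on 1 gene. Of the 7 tested astrocyte markers, 2 were positive and 5 were lower within 3 of 3 replicate numbers, with a median log2 difference of -1.40. Gfap, which encodes an astrocyte filament protein, stood at 0.643, 0.37 and 0.733 FPKM in the 3 controls against 3.69, 6.20 and 24.8 FPKM after fibrils, with every fibril library above every control (log2 difference 2.60, SE 0.61, limma adjusted p = 0.564). Aldoc was high in fibril replicate 3 (181 FPKM, against 66.6 to 92.8 FPKM in the other 5 libraries), and the transporter genes Slc1a3 and Slc4a4 had every fibril library below every control (-1.40, SE 0.45, and -1.91, SE 0.39). The 10 microglia and macrophage markers summed to 7.32, 45.6 and 1.502 FPKM in the 3 controls against 11.9, 61.3 and 35.9 FPKM after fibrils. Their order differed from that of Apoe, and in replicate 1 of the control and fibril groups 8 and 7 of the 10 were at 0. The 10 markers of differentiating oligodendrocytes summed to 841, 336 and 504 FPKM against 2732, 2224 and 4090 FPKM, with all fibril libraries above all controls. All 9 tested ones were positive, with a median log2 difference of 2.65. Limma called 0 of them without a block and 3 higher with the block (0.111% of all tested genes). The 7 precursor markers summed to 1464 to 2392 FPKM in the 3 controls against 1180 to 1382 FPKM with fibrils. Of these markers 1 was positive and 5 were lower within 3 of 3 replicate numbers, with a median log2 difference of -0.65. Limma called 0 of the precursor markers, with or without the block. The part of these cell types in the Apoe and enzyme values was not tested.

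**Figure D3:**
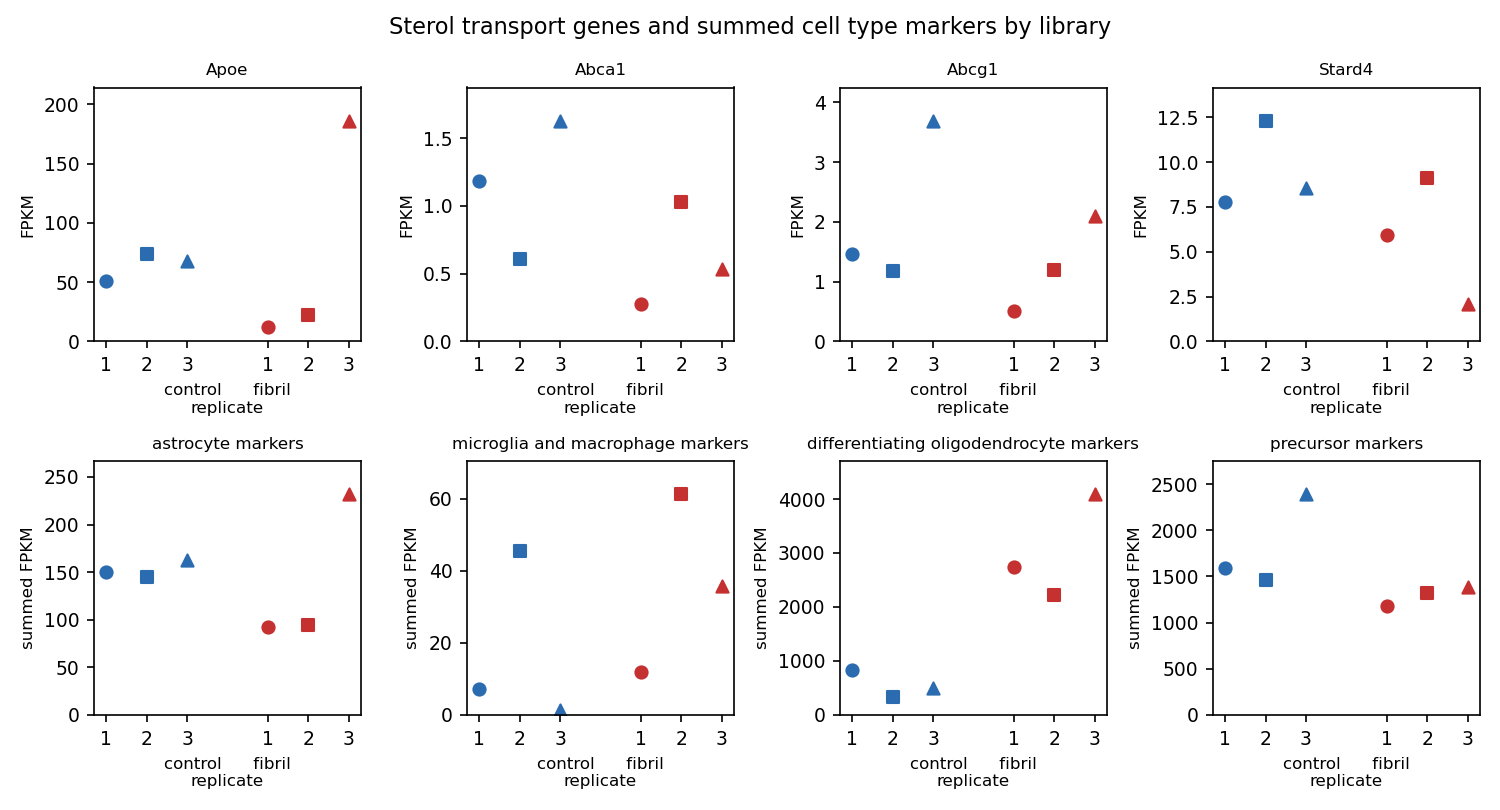
Upper row: FPKM of Apoe, Abca1, Abcg1 and Stard4 in each library. Lower row: summed FPKM of the astrocyte, microglia and macrophage, differentiating oligodendrocyte and precursor markers in the same libraries (blue control, red fibril, replicates 1 to 3 from left to right, linear axes from 0). Fibril replicate 3 is highest for both Apoe (186 FPKM) and the astrocyte sum (232 FPKM, of which 181 FPKM is Aldoc).

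Replicate 1 lay apart from the other libraries for some members, as it did for many other genes. In 7 of 28 tested members both replicate 1 libraries lay above the 4 others (Hmgcs1, Idi1, Msmo1, Nsdhl, Hsd17b7, Sc5d and Insig1), and in 9 both lay below them (Acat2, Mvk, Mvd, Fdft1, Sqle, Lss, Srebf2, Scap and Nr1h2). Among all tested genes 19.9% lay above and 27.3% below, so the members' shares of 25.0% and 32.1% were near those of other genes. The size was large for single enzymes. Idi1 was higher in replicate 1 than in the mean of replicates 2 and 3 by 2.84 on the log2 scale in controls and 2.13 with fibrils, and Hmgcs1 by 2.03 and 1.51. Mvd was lower by the same measure (-1.71 and -2.45), as was Lss (-1.85 and -2.20). Enzymes of consecutive steps stood on opposite sides, such as Mvd and Idi1. These values are a description without a test. Replicate 1 was also the pair with the highest mitochondrial share and the lowest depth, and the part of either in these values was not tested.

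**Figure D4:**
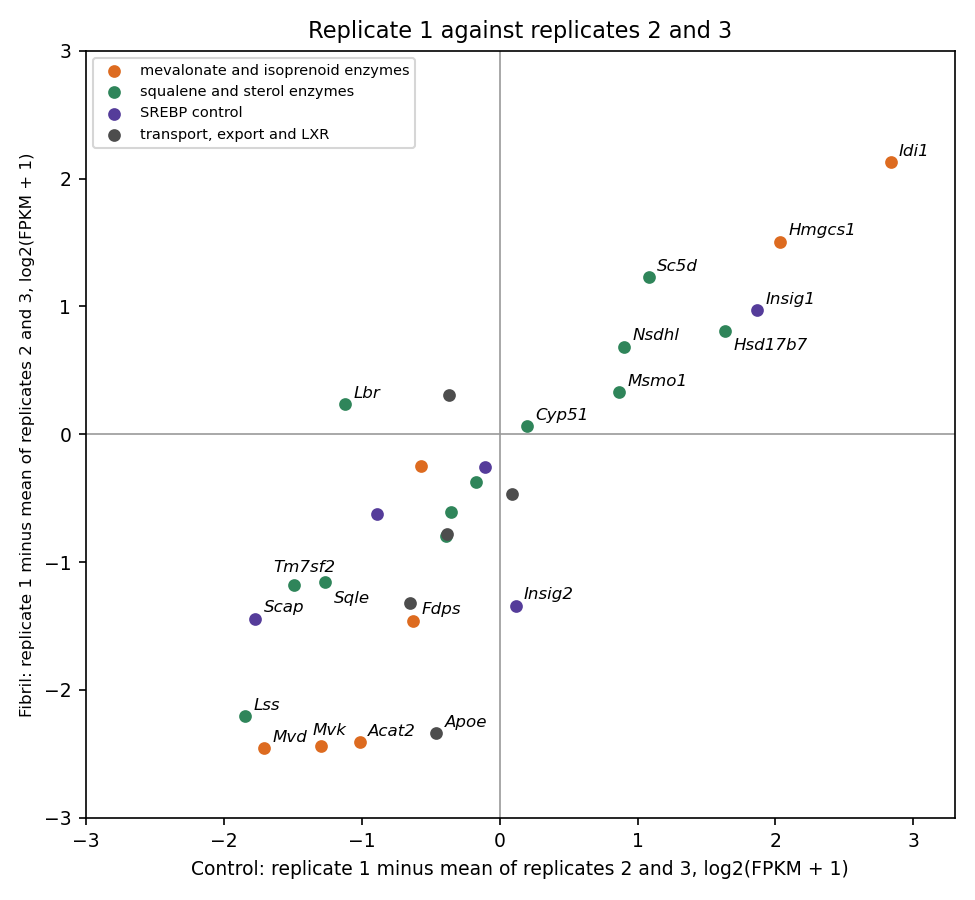
Replicate 1 minus the mean of replicates 2 and 3 in log2(FPKM + 1), in the control group (horizontal) and the fibril group (vertical), 1 point per gene, coloured by role. Idi1 and Hmgcs1 lie at the upper right and Mvd, Lss, Mvk and Acat2 at the lower left.

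Other genes that handle sterol were taken from fixed lists. In sterol uptake and intracellular transport, 0 of 16 tested genes passed in either direction by limma, 9 were positive and the median log2 difference was 0.04. Vldlr, a receptor for lipoproteins, had 12.4, 10.4 and 14.5 FPKM in the 3 controls against 17.0, 13.2 and 17.9 FPKM after fibrils. Lrp8, the related ApoE receptor, had 16.7, 11.7 and 14.3 FPKM against 8.21, 10.8 and 3.73 FPKM, with all fibril libraries below all controls and a log2 difference of -0.91 (SE 0.44, limma adjusted p = 0.96). Npc2, the lysosomal sterol carrier, and Gramd1b, a sterol transporter at membrane contacts, had differences of 0.47 and -1.06 with overlapping groups.

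In the list drawn up for control of SREBP processing and enzyme turnover, 0 of 12 tested genes passed, 3 were positive and the median was -0.24. Sp1, encoding a promoter partner of SREBP, had 16.8, 13.5 and 18.1 FPKM in the 3 controls against 13.8, 12.1 and 6.67 FPKM after fibrils, lower within 3 of 3 replicate numbers. Erlin2, of the complex that helps degrade sterol-regulated proteins, had 26.6, 14.6 and 16.4 FPKM against 18.1, 12.5 and 6.47 FPKM, also lower within 3 of 3. Both sets of groups overlapped, and their adjusted p by limma was 0.96. Ubxn8, whose part in this control is not established, and Nfyc, an NF-Y subunit, had positive differences of 0.34 (SE 0.44) and 0.18 (SE 0.36).

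LXR and oxysterol genes had a positive median of 0.27, with 6 of 10 tested genes positive and 0 past the threshold. Pltp, a phospholipid transfer protein and LXR target, had 0.864, 1.08 and 0.175 FPKM in the 3 controls against 3.97, 3.64 and 6.66 FPKM after fibrils. All fibril libraries lay above all controls, with a log2 difference of 1.76 (SE 0.41, limma adjusted p = 0.564, and 0.255 with the block). Apod, encoding another lipid carrier, had 79.1, 19.3 and 26.1 FPKM against 108, 57.1 and 195 FPKM, higher within 3 of 3 replicate numbers (difference 1.61, SE 0.64, limma adjusted p = 0.96). Rxra, encoding a partner of LXR, had 0.882, 5.41 and 5.79 FPKM against 0, 2.67 and 1.00 FPKM, and the ABC transporter gene Abcg4 had a difference of -0.65 (SE 0.50). These values lay on both sides of 0, as did those of the other LXR genes above.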

How the data were processed

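RNA-seq of 3 control and 3 fibril libraries was analysed from the deposited table, whose values are FPKM, 1 column per library, per the file headers. Libraries were strand-specific (Agilent SureSelect) and made from column-purified RNA, per the labels' protocols. Read trimming and quality checks list Trimmomatic and FastQC, per the submitters' processing notes; aligner, quantifier and build: not given in the sources used here. Every column of per-library values matched 1 sample by title.

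FPKM are not counts, so count models were not used. Relative depth was read from ratios of values below 1 FPKM, at the offsets where most pairwise ratios lay at 1 to 1 within 0.03 (log2). The scale used was log2(FPKM + 1), over the 10766 genes that reached 1 FPKM in no fewer than 3 libraries; this scale understates changes of low genes. Differences were tested across all genes with limma 3.58.1 in R 4.3.3 (mean-variance trend, two-sided, Benjamini-Hochberg, threshold 0.05, 4 residual degrees of freedom).

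Both groups carry replicate numbers 1 to 3. Deviations from group means correlated across genes at 0.747, 0.364 and 0.216 for the same numbers, all over the 0.1 set for pairing. A fit with the number as a block (2 residual degrees of freedom) is therefore given where it changes a call or a count. Swapping numbers 2 and 3 gave larger values: 0.500 for control 3 against fibril 2, and 0.433 for control 2 against fibril 3. Unequal numbers that included a replicate 1 library gave -0.681 to -0.378. Only replicate 1 was thus set apart by these values. Matching 2 with 2 and 3 with 3, in the block and within replicate numbers, rests on the shared number alone. The labels state no pairing.

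The members and gene lists were chosen with earlier results of these data known. Named genes are all members and, in each other list, up to 2 tested genes with the smallest p in each direction. Marker lists covered precursors, differentiating oligodendrocytes, astrocytes, microglia, neurons, fibroblasts and endothelium.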

Additional observations from a re-analysis of the deposited data

How the results depend on the processing

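Over 18 alternatives, 13 of 28 tested members kept their direction in every fit that could be made, and 10 of these were enzymes (Mvk, Pmvk, Fdps, Fdft1, Cyp51, Tm7sf2, Nsdhl, Ebp, Dhcr7 and Lbr). Over all tested genes, limma called 12 higher with the replicate block, 1 with the block and equal totals, 18 with a term for replicate 1, 37 with the block and fibril replicate 3 left out, and 1 without the mean-variance trend. It called 1 lower with the term for replicate 1 and 8 with the block and fibril replicate 3 left out. In that last fit 1 member was called lower (Apoe, -1.83), and the block changed no other member's call. The members' median was -0.12 with equal totals, with and without the block, and the median of all tested genes was then -0.30. Signs reversed with equal totals, with and without the block, for Hsd17b7 (-0.22), Sc5d (-0.19) and Nr1h2 (-0.0459). With the block and fibril replicate 3 left out they reversed for Msmo1 (-0.0196), Hsd17b7 (-0.0757), Srebf2 (0.0471) and Nr1h2 (-0.19). With replicates 2 and 3 only they reversed for Acat2 (0.17), Insig1 (0.17) and Insig2 (0.0909), and with a pseudocount of 5 for Hsd17b7 (-0.0102). Leaving out 1 library at a time gave 0 to 3 genes called higher (3 without fibril replicate 3). The SREBP control median then ran from -0.37 to 0.0863 and the enzymes' median from 0.16 to 0.52 (0.26 after quantile normalization). The differences of members that reversed for some library ran from -0.70 to 0.51 for Acat2, -0.0019 to 1.18 for Hmgcs1, -0.10 to 1.31 for Mvd, -0.15 to 1.51 for Idi1, -0.52 to 0.29 for Sqle, -1.28 to 0.14 for Lss, -0.26 to 0.58 for Hsd17b7, -0.30 to 0.48 for Sc5d, -0.38 to 0.19 for Srebf2, -0.72 to 0.35 for Scap, -0.59 to 0.49 for Insig1, -0.74 to 0.0522 for Insig2, -1.88 to 0.0368 for Apoe and -0.19 to 0.69 for Nr1h2. Members that did not reverse also moved, among them Fdps from 0.50 to 1.496, Tm7sf2 from 0.69 to 1.71, Mvk from 0.11 to 1.39 and Stard4 from -1.17 to -0.31. The cause of these changes was not tested. Depth is unknown in fragments, so no counting interval can be given, and the low values of Srebf1, Abca1 and Abcg1 rest on the least signal.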

Other observations

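Among fatty acid synthesis genes, which SREBP also drives, 3 of 10 tested genes were positive, 0 passed by limma, and the median log2 difference was -0.23. Acaca, encoding the carboxylase that makes malonyl-CoA, had 8.43, 9.69 and 17.1 FPKM in the 3 controls against 4.49, 10.1 and 1.96 FPKM after fibrils (difference -1.11, SE 0.54, limma adjusted p = 0.96). Scd, a desaturase, had 8.87, 11.9 and 8.41 FPKM against 6.97, 10.1 and 4.01 FPKM, lower within 3 of 3 replicate numbers with overlapping groups. Acly, which supplies acetyl-CoA, had 76.9, 54.5 and 75.4 FPKM against 86.3, 75.4 and 89.2 FPKM. Scd2, the abundant brain desaturase, had a difference of 0.29 (SE 0.50).

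In the isoprenoid branch, a list that includes enzymes attaching farnesyl and geranylgeranyl groups to proteins, 7 of 10 tested genes were positive and 0 passed by limma. Fnta, encoding a subunit shared by protein prenyltransferases, had 67.3, 38.7 and 36.1 FPKM in the 3 controls against 207, 107 and 260 FPKM after fibrils. All fibril libraries lay above all controls (difference 1.96, SE 0.49, limma unadjusted p = 0.00323, adjusted p = 0.705, and 0.148 with the block). Pdss2, Pggt1b and Ggps1 had differences of 0.37, -0.40 and -0.10. Ggps1, which makes geranylgeranyl diphosphate, stood high in replicate 1 of both groups (40.4 and 31.1 FPKM, against 6.26 to 10.7 FPKM in the other 4 libraries). The 6 neuron markers together had 89.1 to 147 FPKM in the 3 controls against 56.1 to 73.1 FPKM with fibrils.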
